A study of Homo sapiens with 16 samples.

Results

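Electrical stimulation of SH-SY5Y cells on PEDOT:PSS films was examined by comparing every gene in 2 stimulated libraries with 2 unstimulated libraries from the same kind of film. These 4 libraries were taken by their labels from the 16 of the series, which holds 8 groups of 2 libraries. SH-SY5Y is an established human neuroblastoma cell line, and PEDOT:PSS is a conducting polymer blend used to coat electrodes. All 4 libraries came from cells on films coated with poly-L-lysine and laminin, which were kept in growth medium and then taken through the same differentiation. Fetal serum was cut to 5% on day 2, to 2.5% on day 3 and to 1% on day 5, and penicillin/streptomycin was added on day 2. Retinoic acid at 10 µM was present from day 3 until day 6, and medium with 50 ng/mL of the neurotrophin BDNF followed for 4 days. The stimulated cells also received a square wave of 0.1 V peak to peak at 1 Hz for 8 h each day during the last 4 days, so BDNF and stimulation overlapped in time. The unstimulated cells had the same film, retinoic acid and BDNF and no applied potential. Libraries from P(rGO), a polymer composite with reduced graphene oxide, and from ITO, indium tin oxide, each with and without stimulation, were used only to compare the effect of stimulation between films.

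Retinoic acid and BDNF drive neuroblastoma cells out of the cell cycle and toward a neuron-like state with neurites. In neurons, membrane depolarisation opens calcium channels and calcium-dependent kinases switch on immediate early genes such as EGR1, FOS and NR4A1. Conducting films pass a potential to the cells that grow on them, and an electrode under potential can also act on cells through heat, ions or reactive oxygen, which induce heat shock genes, metallothioneins and NRF2 targets.

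The 4 PEDOT:PSS libraries held 15600410 and 18193123 reads in genes without stimulation and 18290457 and 18136286 with it, within the range of 15600410 to 20851000 over all 16 libraries. The biological coefficient of variation between replicates was 7.52% without and 6.88% with stimulation, the lowest values of the 8 groups. A chi-square test of the counts of each replicate pair gave 8.63 and 5.31 per degree of freedom, so both pairs differed by more than counting noise. In a principal component analysis of these 4 libraries the first component held 38.2% of the variance and separated replicate 1 from replicate 2, and the second held 36.2% and separated stimulated from unstimulated libraries. Nothing in the labels says that the replicates were grown as separate cultures, and the p-values therefore reflect library-to-library spread that may be technical. Adrenergic neuroblast markers were present in all 4 libraries, with HAND2 between 851.3 and 944.4 CPM (counts scaled to library size) and CHGB between 1149 and 1276 CPM. TH, the first enzyme of catecholamine synthesis, stood at 0.60 to 3.72 CPM, and CHGA is listed at 0 counts in every library. LDHA, HSPA1A, HSPA1B, RPL7A and RPS18, which most cells use, are also listed at 0 in these 4 libraries, so a gene listed at 0 may be one that the counting could not assign.

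No gene passed the test between stimulated and unstimulated PEDOT:PSS. With edgeR's quasi-likelihood test and a threshold of 0.05 on the Benjamini-Hochberg adjusted p, 0 of 18081 genes were called in either direction, a background of 0%, and every adjusted p was 1. At an unadjusted p under 0.05 there were 126 genes (0.697%), of which 57 were higher (0.315%) and 69 lower (0.382%) with stimulation. DESeq2 called 0 genes as well, with 69 at an unadjusted p under 0.05. When all genes with any count were tested, with no filter on low counts, 3 genes were called, and all 3 were higher with stimulation. These were HSPA6 (adjusted p = 0.000255), MT2A (adjusted p = 0.00894) and CCL2 (adjusted p = 0.0168) by edgeR, and that setting tested 36835 genes. The log2 fold changes hardly moved, from 2.096 to 2.105 for HSPA6 and from 1.529 to 1.536 for MT2A. Their unadjusted p by edgeR went from 0.0259 to 6.91e-09 and from 0.109 to 4.85e-07. These calls thus did not come from larger estimates, and what lowered the p was not tested. The main fit and the fit with no filter both share their estimate of spread with groups whose coefficient of variation reached 36.2%. With no difference and a well-set spread, a share of 0.05 of genes would fall under that unadjusted threshold. The share of 0.697% is below this, so 0 called genes does not show that no gene changed. Fitted alone, the 4 PEDOT:PSS libraries gave 0 called genes of 16458, with 991 at an unadjusted p under 0.05 and a lowest adjusted p of 0.136 by edgeR. A fit of the 12 film libraries, without the plate groups, gave 0 called genes of 17528, with 311 at an unadjusted p under 0.05 by edgeR.

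The intervals around the fold changes were narrow for most expressed genes. Of 11540 genes with at least 5 CPM in 1 of the 2 groups, 10928 (94.7%) had a 95% interval that lay within a 2-fold change in either direction, and 66.0% within a 1.5-fold change. The median standard error of the log2 fold change in these genes was 0.190. Only HSPA6 and MT2A had an estimate beyond 2-fold, and 91 genes had an estimate over 0.5 on the log2 scale in size. Over all 18075 tested genes with an interval, 66.7% of the intervals lay within 2-fold. As this includes the 11540 genes above, the share among weakly expressed genes is lower still. Differences past 2-fold could therefore not be excluded for many of those.

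**Figure D1:**
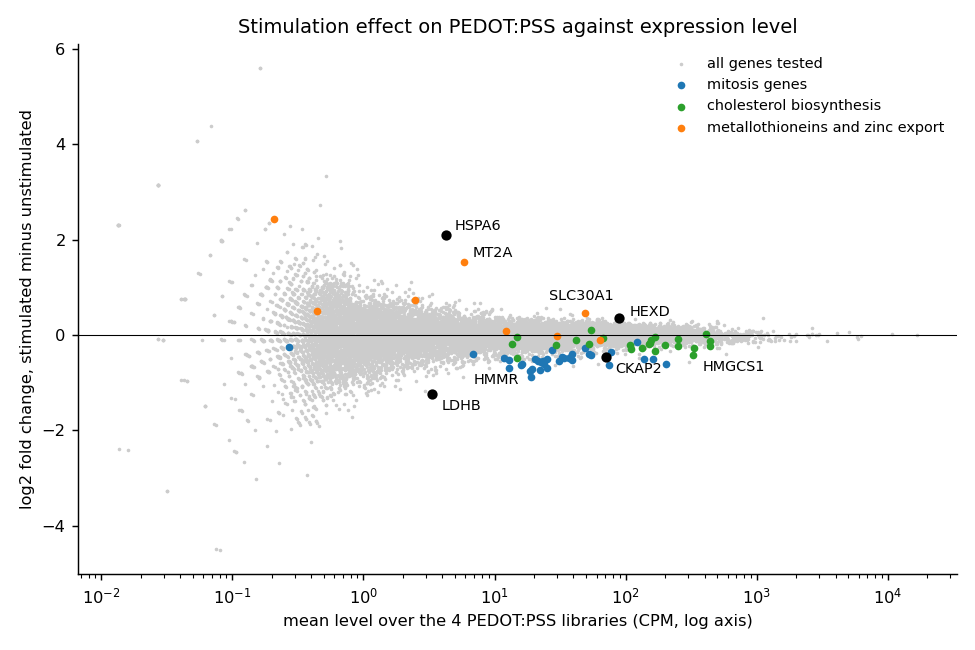
Log2 fold change (stimulated minus unstimulated, vertical axis) against the mean level over the 4 PEDOT:PSS libraries (CPM, log axis) for each tested gene, with mitosis, cholesterol and zinc genes in colour and 4 single genes in black. All 34 mitosis genes lie below 0, and HSPA6 and MT2A stand above the other genes of their level.

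Genes of mitosis lay lower with stimulation as a list. All 34 tested genes of the 35 on this list had a lower estimate with stimulation, none was called, and the median log2 fold change was -0.51 beside -0.004 over all genes tested. In 30 of them both stimulated libraries lay below both unstimulated ones, beside 18.7% of all genes tested, and in 0 did both lie above, beside 17.7%. In bulk RNA, fewer dividing cells and less of these RNAs per dividing cell cannot be told apart. The summed level of the list was 1917 and 1572 CPM without stimulation and 1167 and 1317 CPM with it, a ratio of 0.712. Unstimulated replicate 1 was the highest of the 12 film libraries. Unstimulated cells on P(rGO) stood at 1083 and 1133 CPM and on ITO at 1332 and 1355 CPM, so the stimulated PEDOT:PSS libraries lay among the unstimulated libraries of the other films. Without unstimulated replicate 1 the median was -0.298, with 33 of 34 genes still lower, and without unstimulated replicate 2 it was -0.742.

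Many mitosis promoters carry a CHR (cell cycle genes homology region) and CCAAT boxes, through which the DREAM complex keeps these genes off in resting cells and the factors B-MYB, FOXM1 and NF-Y raise them in G2 and mitosis. The promoters of MKI67, TOP2A and CDC20 are printed because both motifs fall in 100 bases that hold no annotated exon and because their genes are among those plotted by library. They are given 5′ to 3′ on the strand of the gene, from RefSeq on GRCh38.p14, with the CHR letters TTTGAA and the CCAAT letters in capitals on either strand, so that TTCAAA and ATTGG are the same motifs read on the other strand. In MKI67 one copy of each motif overlaps. The stretches are chr10:128126424-128126523 (minus strand) for MKI67, chr17:40417951-40418050 (minus strand) for TOP2A and chr1:43358855-43358954 (plus strand) for CDC20.
MKI67: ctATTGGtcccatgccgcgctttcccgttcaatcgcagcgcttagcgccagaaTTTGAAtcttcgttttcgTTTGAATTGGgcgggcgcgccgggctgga
TOP2A: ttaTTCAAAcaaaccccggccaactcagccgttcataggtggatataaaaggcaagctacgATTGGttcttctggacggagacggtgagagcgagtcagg
CDC20: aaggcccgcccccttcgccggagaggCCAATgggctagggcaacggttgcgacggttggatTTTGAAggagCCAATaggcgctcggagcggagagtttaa

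Promoters were found for 29 of the 35 mitosis genes. In the 250 bases before the RefSeq start, 16 of the 29 (55.2%) held TTTGAA on either strand, beside 13.6% of all 27305 promoters, and 22 (75.9%) held CCAAT, beside 33.0%. Some of these bases lie in exons of other annotated transcripts, and a match is a description of the letters only.

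HMMR, a spindle-associated hyaluronan receptor on chromosome 5 from 163460203 to 163491945 (GRCh38), stood at 28.9 and 20.3 CPM without and 11.4 and 15.2 CPM with stimulation. The groups did not overlap, and its log2 fold change was -0.89 ± 0.39 (SE, unadjusted p = 0.0414 by edgeR). BUB1, a kinase of the spindle checkpoint on chromosome 2 from 110637698 to 110678114, stood at 36.8 and 24.9 CPM without and 18.5 and 19.4 CPM with it, a log2 fold change of -0.70 ± 0.32. Its replicates with stimulation were close to each other, and the spread lay in the unstimulated pair. Without unstimulated replicate 1 the estimate was -0.394. CKAP2, a microtubule-associated protein of dividing cells on chromosome 13 and not on the list, stood at 87.2 and 78.1 CPM without and 57.2 and 62.4 CPM with stimulation. Its log2 fold change of -0.47 ± 0.17 had the smallest p among lower genes at 5 CPM or more (unadjusted p = 0.017 by edgeR). FAM83D, which brings a kinase to the spindle, stood at 26.6 and 22.3 CPM without and 17.1 and 19.0 CPM with it.

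For the next 3 genes the groups did not overlap either. MKI67, the coat protein of mitotic chromosomes on chromosome 10, stood at 168 and 157 CPM without and 111 and 119 CPM with stimulation. TOP2A, the topoisomerase that untangles chromosomes, stood at 272 and 221 CPM without and 145 and 178 CPM with it. CCNB2, a cyclin of mitotic entry, stood at 25.9 and 21.1 CPM without and 12.9 and 14.7 CPM with it. The exceptions were AURKB, CDC25C, NUF2 and PRC1, whose groups overlapped. PRC1 was counted at 0.163 to 0.324 CPM only, and 2 other genes on its strand overlap it, so its count may be partial. In cells on P(rGO) the same list had a median of -0.84, with 32 of 34 genes below, beside 20.4% of all genes, and on ITO the median was 0.04. By the test of the difference itself, 0 mitosis genes were called between films, and the smallest unadjusted p was 0.136 against P(rGO) and 0.0691 against ITO by edgeR. For HMMR the effect on PEDOT:PSS minus that on ITO was -0.83 ± 0.55 on the log2 scale.

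**Figure D2:**
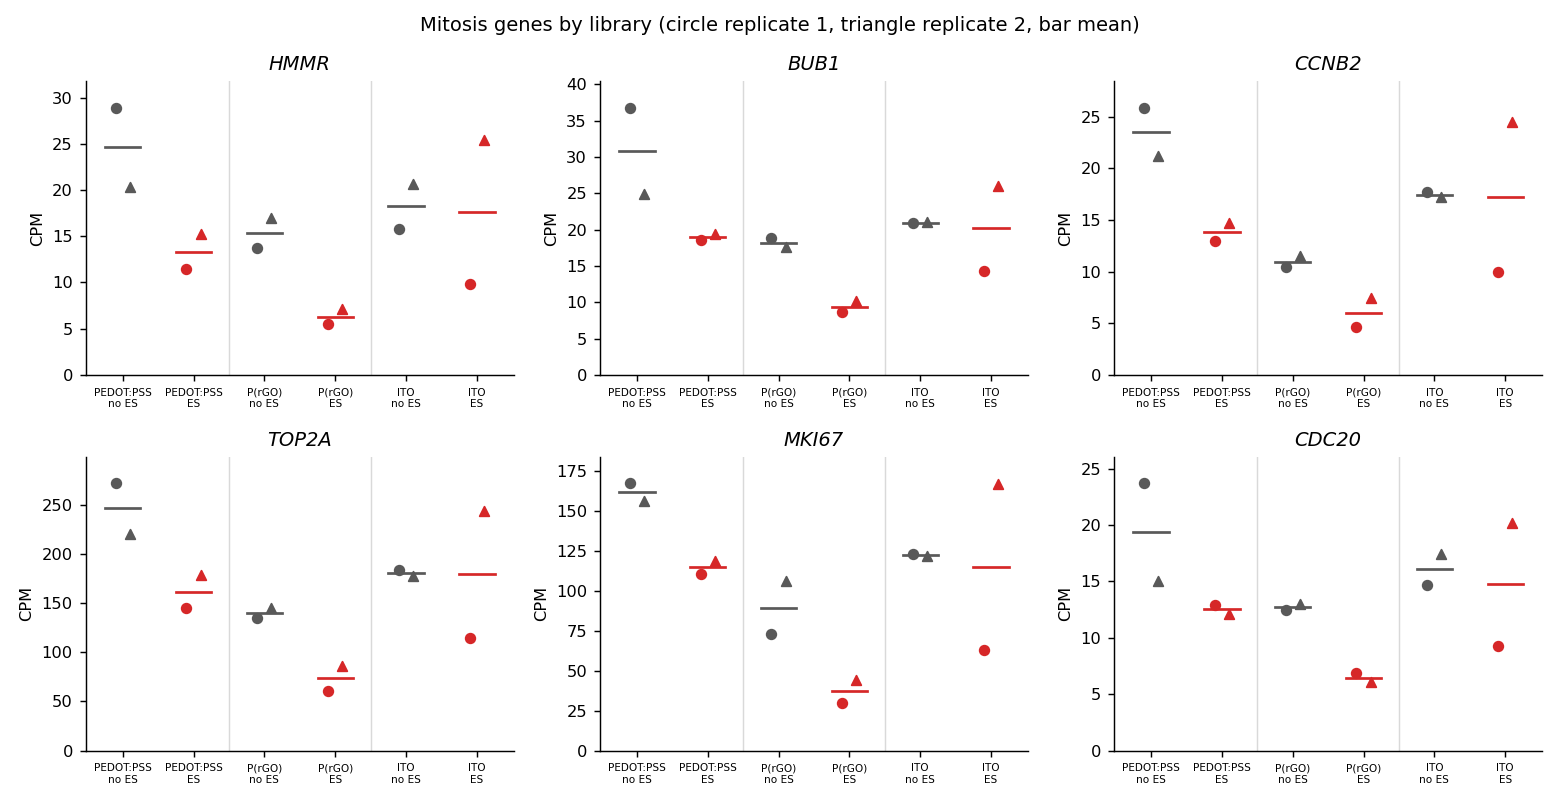
CPM of 6 mitosis genes in the 12 film libraries (circles replicate 1, triangles replicate 2, bars the mean of 2, grey unstimulated, red stimulated). On PEDOT:PSS both stimulated libraries lie below both unstimulated ones for every gene shown, and on ITO the 2 stimulated libraries lie on either side of the unstimulated pair.

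Most genes of DNA replication also had lower estimates. Of 36 on the list 35 were tested, 30 had a lower and 5 a higher estimate, 0 were called, and 21 lay below in both stimulated libraries, beside 18.7% of all genes, with a median of -0.13. TYMS, which makes thymidylate, stood at 95.0 and 84.3 CPM without and 71.5 and 70.6 CPM with stimulation. MCM2, a helicase subunit, had a log2 fold change of -0.07 ± 0.30. Of 31 promoters of the list 5 (16.1%) held an E2F site TTTCGCGC or TTTGGCGC, beside 0.996% of all promoters. Among G1 genes the cyclin gene CCND1 stood at -0.09 ± 0.33 and the inhibitor gene CDKN1A at -0.16 ± 0.27 on the log2 scale.

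Sterol synthesis genes, which the factor SREBP2 raises when membrane cholesterol is short, also lay lower as a list. Of 24 tested genes of 25, 22 had a lower and 2 a higher estimate, 0 were called, and 14 lay below and 1 above in both stimulated libraries, beside 18.7% and 17.7% of all genes. The median was -0.19, and it was -0.063 without unstimulated replicate 1. The summed level of the list was 4706 and 3998 CPM without and 3800 and 3864 CPM with stimulation. HMGCS1, which feeds the mevalonate pathway and lies on chromosome 5 from 43289395 to 43313512, stood at 430 and 323 CPM without and 274 and 290 CPM with stimulation (-0.42 ± 0.19). SC5D, a late sterol desaturase on chromosome 11, stood at 128 and 114 CPM without and 94.3 and 105 CPM with it (-0.28 ± 0.13). Fatty acid synthesis genes had a lower estimate in 12 of 13, with 7 below in both stimulated libraries, beside 18.7% of all genes, and a median of -0.11. Without unstimulated replicate 1 that median was -0.042, with 9 of 13 lower. The sterol list had medians of -0.32 on P(rGO) and -0.34 on ITO. Of 18 promoters of the list 1 (5.56%) held the sterol regulatory element searched for, beside 0.0366% of all promoters.

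HSPA6 had the largest fold change of the genes at 5 CPM or more. It encodes an inducible heat shock protein of the HSP70 family that is nearly silent in unstressed cells, and it lies on chromosome 1 from 161524540 to 161526910. It stood at 1.92 and 1.30 CPM without and 8.52 and 5.17 CPM with stimulation. The lower stimulated library was above both unstimulated ones, with a log2 fold change of 2.10 ± 0.84 (95% interval 0.29 to 3.90, unadjusted p = 0.0259 by edgeR). It ran from 1.69 to 2.41 on the log2 scale when each replicate was left out in turn. Its reads are uncertain, because the near-identical copy HSPA7 shares sequence and reads placed at more than 1 position were not assigned to a gene. On P(rGO) it stood at 1.43 and 0.64 CPM without and 5.801 and 5.846 CPM with stimulation. On ITO it stood at 4.20 and 1.69 CPM without and 26.6 and 2.30 CPM with it, so there the groups overlapped. The test of the difference between films gave -0.39 ± 1.21 against P(rGO) and -0.19 ± 1.16 against ITO on the log2 scale.

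The promoter of HSPA6 is printed because HSPA6 had the largest estimate while the tested genes of the heat shock list lay on both sides of 0. It is the 100 bases before the RefSeq start, chr1:161524440-161524539 on the plus strand, with the paired heat shock letters GAANNTTC in capitals.
HSPA6: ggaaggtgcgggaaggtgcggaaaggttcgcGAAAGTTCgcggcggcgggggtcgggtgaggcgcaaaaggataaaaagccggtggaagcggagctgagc

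These letters stood in 7 of 19 heat shock promoters (36.8%), beside 5.85% of all promoters. HSPA1A, HSPA1B and CHORDC1, whose promoters are among the 7, held 0 counts in these 4 libraries. The values of the list therefore do not describe these genes. Of 16 heat shock genes tested of 19, HSPA6 not among them, 7 had a higher and 9 a lower estimate, with a median of -0.02, which was 0.007 without stimulated replicate 2 and 0.015 without unstimulated replicate 1. BAG3, a cochaperone, stood at 6.76 and 5.14 CPM without and 10.6 and 8.28 CPM with stimulation (0.67 ± 0.42), so its groups did not overlap. DNAJB1, another inducible member, stood at 134 and 136 CPM without and 152 and 138 CPM with it. HSPA8, the constitutive form, had a log2 fold change of -0.04 ± 0.33 and HSPH1 of 0.03 ± 0.26.

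Zinc-responsive genes had the highest median of the lists. Of the 12 genes on the list 8 were tested, 6 had a higher estimate, 0 were called and 3 lay above in both stimulated libraries, beside 17.7% of all genes, with a median of 0.49. MT2A, a metallothionein that binds zinc and copper, on chromosome 16 from 56608199 to 56609497, stood at 2.81 and 3.19 CPM without and 11.9 and 5.45 CPM with stimulation (1.53 ± 0.89). Its estimate was 0.86 without stimulated replicate 1 and 1.98 without stimulated replicate 2. MT1F, a further metallothionein, stood at 1.98 and 1.73 CPM without and 3.56 and 2.61 CPM with it. SLC30A1, which exports zinc through the plasma membrane, on chromosome 1 from 211571568 to 211578742, stood at 43.3 and 38.7 CPM without and 60.9 and 52.3 CPM with it (0.47 ± 0.26). In all 3 genes stimulated replicate 1 was the higher of the pair. The same held on the other films, where MT2A stood at 33.5 and 7.33 CPM on stimulated P(rGO) and at 34.4 and 3.15 CPM on stimulated ITO. Without stimulation MT2A stood at 5.84 and 2.14 CPM on P(rGO) and at 4.68 and 2.74 CPM on ITO. The list had medians of 1.311 on P(rGO) and 1.065 on ITO, both higher than on PEDOT:PSS. In both stimulated libraries 5 of 8 genes lay above on P(rGO) and 2 on ITO, beside 18.1% and 14.4% of all genes. MTF1, the zinc-sensing factor, had a log2 fold change of -0.02 ± 0.18. Metallothioneins are near-identical copies, so their counts are uncertain. Without unstimulated replicate 2 the list had 4 higher and 4 lower estimates and a median of 0.175.

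The promoter of SLC30A1 is printed because it is one of the 3 zinc genes whose groups did not overlap, and its 100 bases hold no annotated exon. It covers chr1:211579162-211579261 on the minus strand, and the metal response core TGCACNC or TGCGCNC on either strand is in capitals.
SLC30A1: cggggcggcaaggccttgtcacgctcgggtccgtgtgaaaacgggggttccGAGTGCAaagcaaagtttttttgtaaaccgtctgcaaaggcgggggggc

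The core stood in 5 of 7 promoters of the list (71.4%), beside 24.7% of all promoters.

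**Figure D3:**
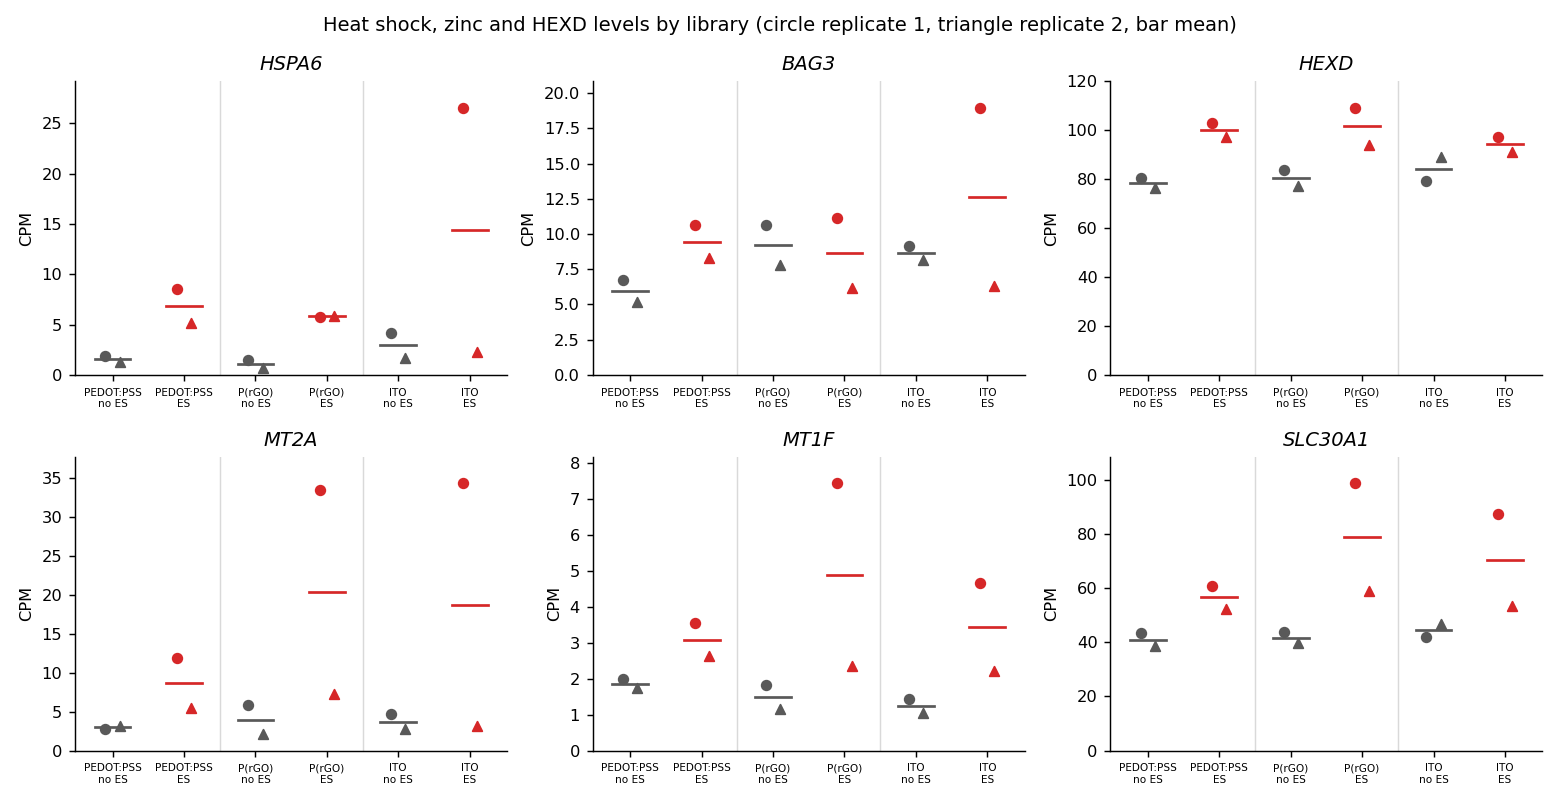
CPM of HSPA6, BAG3, HEXD, MT2A, MT1F and SLC30A1 in the 12 film libraries (circles replicate 1, triangles replicate 2, bars the mean of 2, grey unstimulated, red stimulated). On PEDOT:PSS both stimulated libraries lie above both unstimulated ones for all 6 genes, and replicate 1 is the higher stimulated library on PEDOT:PSS for each.

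Immediate early genes, the usual readout of depolarisation, had small differences in level between the groups, with more genes higher than lower. The time from the last stimulation to harvest is not given here. IER3, KLF4 and NR4A2 of the list held 0 counts in these 4 libraries. Of 24 tested genes of 30, 16 had a higher and 8 a lower estimate, 0 were called, and 7 lay above and 1 below in both stimulated libraries, beside 17.7% and 18.7% of all genes, with a median of 0.11. Without unstimulated replicate 1 the median was 0.004. EGR1, a zinc finger factor, stood at 179 and 204 CPM without and 236 and 218 CPM with stimulation (0.25 ± 0.50). NR4A1, a nuclear receptor, stood at 30.2 and 26.2 CPM without and 35.5 and 30.3 CPM with it. FOS, a subunit of the AP-1 factor, stood at 12.96 and 12.5 CPM without and 14.7 and 14.1 CPM with it (0.18 ± 0.53). ARC, a regulator of synaptic receptors, stood at 17.1 and 11.96 CPM without and 19.1 and 14.5 CPM with it, so its groups overlapped. The 95% interval of EGR1, from -0.83 to 1.33, does not exclude a change past 2-fold upward. Of 24 promoters of the list 2 (8.33%) held the cyclic AMP response element TGACGTCA, beside 1.77% of all promoters.

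Genes of synaptic vesicles and of neurites were, as lists, close to their unstimulated level. The synaptic vesicle list had a median of 0.01, with 19 higher and 15 lower estimates of 34, and the neurite list had a median of -0.04, with 9 of 32 below and 4 above in both stimulated libraries, beside 18.7% and 17.7% of all genes. SYP, a vesicle protein, stood at 229 and 242 CPM without and 273 and 254 CPM with stimulation, and SNAP25, a fusion protein, at 257 and 272 CPM without and 262 and 264 CPM with it. The 95% interval of SNAP25, -0.43 to 0.41 on the log2 scale, lay within a 2-fold change. DCX, a microtubule protein of young neurons, had a log2 fold change of -0.07 ± 0.22 and STMN2, a growth cone protein, of -0.12 ± 0.16. NTRK2, the receptor for BDNF, stood at 327 and 464 CPM without and 350 and 448 CPM with it, so replicate 1 was the lower in both groups. CYP26A1, a retinoic acid target, stood at 7.08 and 43.9 CPM without and 33.9 and 40.5 CPM with it, and unstimulated replicate 1 alone was low. Neuropeptide genes had 7 higher of 8 estimates and a median of 0.22, which was 0.083 without stimulated replicate 1 and 0.345 without stimulated replicate 2, with 5 of 8 higher. Their summed level went the other way, at 331 and 339.1 CPM without and 323.5 and 327.8 CPM with stimulation. UCN, encoding urocortin, stood at 2.55 and 2.54 CPM without and 3.94 and 3.92 CPM with it (0.62 ± 0.35). Catecholamine genes had a median of -0.075, with 8 lower and 6 higher estimates of 14 and 0 called. Of these genes 4 lay below and 2 above in both stimulated libraries, beside 18.7% and 17.7% of all genes. They summed to 1653 and 1293 CPM without and 1250 and 1273 CPM with stimulation. Without unstimulated replicate 1 their median was 0.015.

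Genes of ion channels, through which a potential acts on a neuron, had medians near 0. The voltage-gated sodium and calcium channel list had a median of -0.02, with 2 of 22 above and 3 below in both stimulated libraries, and the potassium channel list a median of 0.04, with 5 of 22 above and 6 below, beside 17.7% above and 18.7% below over all genes. Without stimulated replicate 1 the medians were 0.014 and -0.038. SCN3A, a sodium channel of young neurons, stood at 117 and 143 CPM without and 127 and 137 CPM with stimulation, and replicate 1 was the lower in both groups. CACNA1E, a calcium channel subunit, stood at 6.19 and 6.98 CPM without and 4.85 and 5.07 CPM with it.

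Retinoic acid response genes had a higher estimate in 10 of 12, with 4 above and 1 below in both stimulated libraries, beside 17.7% and 18.7% of all genes, and a median of 0.11. Without unstimulated replicate 1 the median was -0.125, with 4 of 12 higher, so the direction rests on that library. RARG, a retinoic acid receptor, stood at 42.8 and 37.2 CPM without and 46.8 and 47.8 CPM with stimulation. RARB, a receptor that retinoic acid itself induces, stood at 76.0 and 95.5 CPM without and 85.6 and 97.4 CPM with it, so its groups overlapped. The BDNF and Trk signalling list had a median of 0.01, which was -0.061 without stimulated replicate 2 and -0.042 without unstimulated replicate 1.

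The other stress and energy lists had medians near 0. NRF2 and oxidative stress genes had a higher estimate in 18 of 25, with 4 above and 1 below in both stimulated libraries, beside 17.7% and 18.7% of all genes, and a median of 0.05. That median was -0.029 without stimulated replicate 1 and -0.019 without unstimulated replicate 2, with 11 and 12 of 25 higher. NQO1, a quinone reductase, stood at 33.1 and 32.0 CPM without and 43.6 and 36.2 CPM with stimulation, and TXNRD1, a thioredoxin reductase, at 289 and 305 CPM without and 343 and 318 CPM with it. Genes of the unfolded protein and integrated stress response had a lower estimate in 17 of 24, with 12 below and 2 above, beside 18.7% and 17.7% of all genes, and a median of -0.08. That median ran from -0.091 to -0.052 with each replicate left out. HSPA5, the main chaperone of the endoplasmic reticulum, stood at 331 and 283 CPM without and 246 and 269 CPM with it, while ATF4, the factor of the integrated stress response, stood at 138 and 135 CPM without and 154 and 139.6 CPM with it. Nuclear genes of oxidative phosphorylation had a lower estimate in 27 of 40, with 17 below and 4 above, beside the same shares, and a median of -0.07, which was -0.045 without unstimulated replicate 1. COX6C, a subunit of cytochrome oxidase, stood at 69.1 and 68.3 CPM without and 61.5 and 60.2 CPM with it (-0.18 ± 0.11). Of the 13 mitochondrially encoded genes 0 lay above and 0 below in both stimulated libraries, beside 17.7% and 18.7% of all genes. No gene of these lists was called.

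LDHB, a lactate dehydrogenase subunit on chromosome 12 from 21635342 to 21757857, had the smallest unadjusted p of the genes with a symbol. It stood at 4.59 and 4.82 CPM without and 1.83 and 2.18 CPM with stimulation (-1.23 ± 0.32, unadjusted p = 0.00181 by edgeR). Its groups did not overlap and its replicates lay close together. It is a member of the glycolysis list, of which 17 genes were tested with a median of 0.03, which was -0.033 without stimulated replicate 1 and -0.018 without unstimulated replicate 2. Beside LDHA listed at 0, 1 other gene on its strand overlaps LDHB, so its count may be partial. On P(rGO) it stood at 2.58 and 2.84 CPM without and 3.08 and 3.35 CPM with stimulation, above both unstimulated libraries. On ITO it stood at 2.605 and 3.73 CPM without and 2.11 and 2.26 CPM with stimulation, below both, as on PEDOT:PSS. The effect on PEDOT:PSS minus that on P(rGO) was -1.48 ± 0.45 (unadjusted p = 0.00547, adjusted p = 1 by edgeR), and minus that on ITO -0.69 ± 0.45 (unadjusted p = 0.147 by edgeR).

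Other genes with small unadjusted p at 5 CPM or more differed by less than 2-fold. HEXD, a hexosaminidase on chromosome 17, stood at 80.3 and 76.4 CPM without and 103 and 97.4 CPM with stimulation (0.35 ± 0.13, unadjusted p = 0.0135 by edgeR). It stood at 83.6 and 77.2 CPM on unstimulated and at 109 and 94.0 CPM on stimulated P(rGO). CASP9, an initiator caspase from the apoptosis list, stood at 25.5 and 30.7 CPM without and 35.7 and 35.7 CPM with it. TAGLN, an actin-binding protein that is also a fibroblast marker, stood at 3.89 and 3.73 CPM without and 5.93 and 6.32 CPM with it. Among genes that lay lower, ST6GALNAC5, a sialyltransferase, stood at 15.5 and 12.1 CPM without and 10.1 and 8.99 CPM with it. NFIL3, a bZIP repressor, stood at 20.4 and 22.6 CPM without and 16.8 and 17.3 CPM with it. All these genes had an adjusted p of 1.

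A pair of genes had no count in either unstimulated library and at least 10 in the stimulated pair together. ICAM1, an adhesion molecule induced by inflammatory signals, and HES3, a Notch-family repressor, each had 0 counts without and 12 counts with stimulation. With the unstimulated pair set to a floor of 3 counts in all and the 12 counts taken as they stand, each was 3.70-fold higher. That ratio leaves out counting error in the stimulated pair and the spread between libraries. Neither gene was called. CCL2, a monocyte chemokine, had 1 and 2 counts without and 25 and 10 counts with stimulation. These 3 genes were chosen after their values were seen.

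Markers of other cells were summed as a check on the line. The fibroblast markers summed to 245.7 and 240.1 CPM without and 246.1 and 237.5 CPM with it, with POSTN at 0. Of 11 tested fibroblast markers 4 lay above and 4 below in both stimulated libraries, beside 17.7% and 18.7% of all genes. The median of these markers was -0.195, and it was 0.007 without unstimulated replicate 1. Glial markers summed to 27.4 and 20.4 CPM without and 24.4 and 21.2 CPM with it, with SOX10, GFAP and FABP7 among those at 0. Epithelial markers summed to 12.96 and 12.4 CPM without and 14.9 and 11.8 CPM with it, with KRT5 at 0. Immune and endothelial markers summed to 1.28 and 2.06 CPM without and 2.05 and 2.29 CPM with it, and PTPRC, CD3E, CD68, MS4A1, CDH5 and PECAM1 were at 0. Their part in the results was not tested.

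The effect of stimulation was then compared between films. Between stimulated and unstimulated libraries 0 genes were called on P(rGO), with 986 (5.45%) at an unadjusted p under 0.05, and 0 on ITO, with 293 (1.62%), by edgeR. Across the 11540 genes at 5 CPM or more the log2 fold changes on PEDOT:PSS had a Pearson correlation of 0.506 and a Spearman correlation of 0.439 with those on P(rGO), and of 0.167 and 0.0672 with those on ITO. These are descriptions across genes, which are not independent replicates, and the films share no library while replicate 1 carries the same prefix in every group. The test of the difference called 0 genes against P(rGO) (0%), 0 against ITO (0%) and 0 against the mean of both (0%). At an unadjusted p under 0.05 there were 203 genes (1.12%), 128 genes (0.708%) and 131 genes (0.725%), and DESeq2 called 0 in each, with 158, 70 and 84 genes at an unadjusted p under 0.05. ENC1, an actin-binding protein of neurons, stood at 77.1 and 94.4 CPM without and 54.5 and 71.5 CPM with stimulation on PEDOT:PSS, and at 141 and 196 CPM without and 31.2 and 38.0 CPM with it on P(rGO). The difference of the 2 effects was 1.84 ± 0.48 on the log2 scale (unadjusted p = 0.00202 by edgeR). CTSF, a lysosomal protease, stood at 54.4 and 58.0 CPM without and 61.0 and 60.3 CPM with stimulation on PEDOT:PSS, and at 55.2 and 51.3 CPM without and 102 and 99.2 CPM with it on P(rGO). SLIT1, an axon guidance ligand, stood at 68.9 and 67.3 CPM without and 60.4 and 69.9 CPM with stimulation on PEDOT:PSS, and its effect minus the mean effect on both other films was -0.78 ± 0.26 on the log2 scale. Without stimulated replicate 1 on PEDOT:PSS its own effect there was 0.037. PLPP1, a lipid phosphatase, had an effect on PEDOT:PSS that differed from that on ITO by 0.68 ± 0.24 on the log2 scale (unadjusted p = 0.014 by edgeR).

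Ribosomal protein genes had medians on different sides of 0 on the films. On PEDOT:PSS 40 of 46 tested genes had a lower estimate, 17 lay below and 0 above in both stimulated libraries, beside 18.7% and 17.7% of all genes, and the median was -0.06. Without unstimulated replicate 1 the median was -0.005, with 26 of 46 lower, and without stimulated replicate 2 it was -0.021, with 28 of 46 lower. On P(rGO) 35 of 46 lay above in both stimulated libraries, beside 18.1% of all genes, with a median of 0.25, and on ITO 41 of 46 lay above, beside 14.4% of all genes, with a median of 0.17. RPL5, which joins the 5S RNA particle, stood at 585 and 558 CPM without and 496 and 511 CPM with stimulation on PEDOT:PSS, and the difference of its effect from that on P(rGO) did not pass (unadjusted p = 0.11 by edgeR). No member was called in the differences between films. The smallest unadjusted p of a ribosomal protein gene in the differences was 0.0972 against P(rGO) and 0.116 against ITO. These genes have many near-identical copies and their counts are uncertain.

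**Figure D4:**
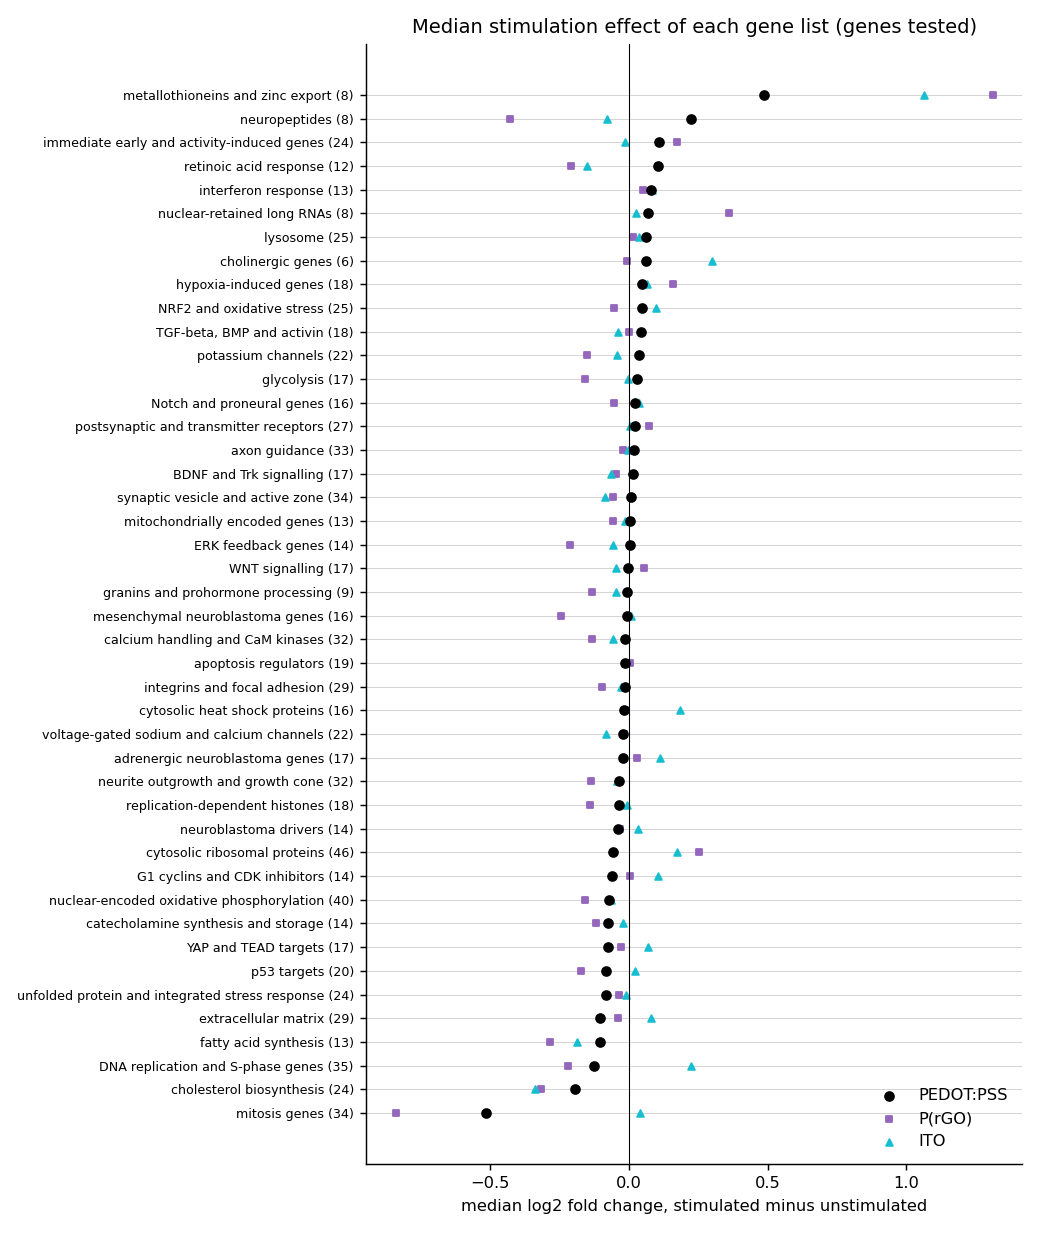
Median log2 fold change (stimulated minus unstimulated) of each gene list, with the number of tested genes in brackets, for PEDOT:PSS (black circles), P(rGO) (squares) and ITO (triangles). On PEDOT:PSS the mitosis list has the lowest median at -0.51 and the zinc list the highest at 0.49, and most others lie near 0.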

How the data were processed

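Per the labels' protocols, libraries were directional and made from poly(A) RNA. The deposited table holds read counts per gene in the layout of HTSeq, and the submitters' processing notes name STAR, HTSeq, GRCh38.p13 and hg38 with no versions. The sources used here do not state the strand setting of the counting. Of 69222 gene rows, 32387 hold no count, and 5 summary rows of reads without a gene were left out of library sizes and tests. In the 4 PEDOT:PSS libraries reads without a feature made up 7.10% to 7.91% of uniquely placed reads, and reads overlapping more than 1 gene 4.81% to 4.93%, so overlapping genes may be undercounted. Symbols matched 62686 rows.

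From these counts, edgeR 4.0.16 in R 4.3.3 kept 18081 genes (default expression filter over the 8 groups), scaled libraries by the trimmed mean of M values and fitted 1 mean per group over all 16 libraries with a robust quasi-likelihood model (8 residual degrees of freedom). Each standard error was taken as the estimate over the square root of its F statistic, and levels are CPM on scaled library sizes. The code was tested on simulated data. Genes were named by the 8 smallest p per direction at 5 CPM or more with groups that do not overlap, the 2 smallest p of each of 48 lists, and the 3 smallest p of each difference between films, with further list members where a list is described. The genes compared and the lists were chosen with earlier results of these data known. The alternatives tried were DESeq2 1.42.0, scaling by relative log expression, testing every gene with a count, the replicate number as a block, fits of the 12 film libraries or of only those compared, a threshold of 0.10, and leaving out each replicate in turn. Promoters came from RefSeq (GRCh38.p14), gene positions and overlaps from GENCODE on GRCh38. Precision is limited by 2 libraries per group. Values of some genes that this rule names are not reported here.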

Additional observations from a re-analysis of the deposited data

Results flagged for a closer look

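Uniquely placed reads outside every counted gene made up 7.53% and 7.91% of unique reads in the stimulated PEDOT:PSS libraries and 7.10% and 7.23% in the unstimulated ones. Reads placed at more than 1 position made up 6.24% and 6.45% of all reads with stimulation and 6.195% and 6.22% without. Both stimulated libraries stood above both unstimulated ones in these reads, which the comparisons of genes do not use.

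The neuropeptide list stood higher in both stimulated PEDOT:PSS libraries (mean log2 level higher by 0.177) and lower in both stimulated P(rGO) libraries (-0.555). By summed level the stimulated PEDOT:PSS libraries stood at 323.5 and 327.8 CPM, below the unstimulated ones at 331 and 339.1 CPM. The direction on PEDOT:PSS thus depended on the measure. By mean log2 level, the list of postsynaptic and transmitter receptor genes stood higher by 0.073 on PEDOT:PSS and at -0.022 on P(rGO), in both libraries of each film. Its median log2 fold change was 0.02 on PEDOT:PSS and 0.071 on P(rGO), where 12 of 27 genes had a lower estimate. The direction of this list on P(rGO) thus depended on the measure as well. Both lists were picked by a scan of all 48 lists for opposite directions on PEDOT:PSS and on P(rGO) or ITO. How many such lists would arise by chance was not tested. The difference between films was not tested for either list.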

How the results depend on the processing

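With 2 libraries a group, the count of 0 called genes for stimulation on PEDOT:PSS also stood under relative log expression scaling, in fits of the 12 film libraries or of only the libraries compared, with DESeq2, at an adjusted p of 0.10 and with each replicate left out (105 to 167 genes at an unadjusted p under 0.05). With no low-count filter 3 genes were called on PEDOT:PSS, 3 in the difference from P(rGO) (ENC1, GAL and INHBA), 1 from ITO (CHRD) and 1 from the mean of both (ENC1), and the cause was not tested. The other alternatives run gave 0 called genes for these differences, with a lowest adjusted p of 0.0996 (against ITO, without unstimulated ITO replicate 1).

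Deviations of same-numbered libraries from the group means correlated at 0.066 to 0.294 over the 15 pairs of film groups, with 13 over 0.1 and 0.141 between the PEDOT:PSS groups, and at -0.189 to 0.294 over all 28 pairs of groups. Same-numbered film libraries thus deviated together in most pairs, but not at over 0.1 in every pair, and the labels do not say what a number shares, so pairing was not taken as given. With the number as a replicate block 0 genes were called and 142 had an unadjusted p under 0.05.

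Leaving out 1 PEDOT:PSS replicate turned the sign of some values. Of 192 list medians so computed 43, from 26 lists, had the other sign; for 40 of them the median over all libraries was within the spread between replicates. The other 3 medians ran from -0.167 to 0.014 for p53 targets, from -0.095 to 0.007 for YAP and TEAD targets and from -0.148 to 0.007 for fibroblast markers. The log2 fold changes ran from -0.701 to 0.196 for MT-ATP8, from -0.049 to 0.398 for MT-CO3, from -0.966 to 0.369 for VIM, from -1.913 to 0.319 for H2AC20, from -0.102 to 0.372 for CLDN4, from -0.431 to 0.064 for EPCAM, from -0.607 to 0.133 for VWF and from -0.175 to 0.037 for SLIT1. Over all alternatives 432 list medians lay within the spread between replicates of the value over all libraries, sign aside, and 45 moved by more, 18 of them without unstimulated replicate 1. Genes under a few CPM are limited by depth.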
